A study of Mus musculus with 6 samples.

Results

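Secreted mediators through which regulatory T (Treg) cells can restrain other immune cells were examined in the transcriptomes of CD4+Lrig1+ and CD4+Lrig1- T cells. They are 7 genes of the 45777 in the tables, chosen by name for what their proteins do: *Il10*, *Ebi3*, *Il12a*, *Fgl2*, *Lgals1*, *Penk* and *Il1rn*. The cells were sorted by flow cytometry from the spleens of female mice of the inbred strain C57BL/6, aged 7 weeks. Both groups were unmodified primary CD4+ T cells, with no transgene and no treatment named, and they differed in whether Lrig1, a transmembrane protein, was detected on the cell surface. Each group has 3 samples in the labels, and the 4 libraries used here lie in 2 tables with 1 CD4+Lrig1+ and 1 CD4+Lrig1- library each, called set 1 and set 2. The study describes its quantitative data in general as biologically independent. For the heatmap of these sequencing data it gives n = 3, and for that figure at least 3 independent experiments. Nothing in the sources used here ties these libraries to separate animals. The p-values thus rest on the spread between these samples, in part pooled over all genes tested, and that spread may be technical.

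Treg cells act partly by contact and partly by what they release. IL-10 signals through the receptor chains IL-10Rα and IL-10Rβ, JAK1, TYK2 and STAT3, and lowers the output of inflammatory cytokines by myeloid cells. IL-35 is a pair of the chains EBI3 and p35 (encoded by *Il12a*). EBI3 also pairs with p28 to form IL-27, and p35 with p40 to form IL-12, so that neither chain alone stands for IL-35. FGL2 acts through inhibitory Fc receptors, galectin-1 (encoded by *Lgals1*) through glycans on the surface of activated T cells, enkephalins cut from proenkephalin (encoded by *Penk*) through opioid receptors, and IL-1 receptor antagonist (encoded by *Il1rn*) by occupying the IL-1 receptor.

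The libraries held 44865070 to 59977951 estimated counts, and all 7 mediator genes were among the 16123 genes that passed edgeR's filter on low counts. Levels below are CPM (counts scaled to library size by the TMM method) where genes are compared between libraries, and FPKM (fragments scaled to transcript length and to the mapped fragments of the library) where genes are compared with each other. *Lrig1* had 221.3 and 128.6 CPM in the CD4+Lrig1+ libraries of set 1 and set 2, and 75.4 and 36.7 CPM in the CD4+Lrig1- libraries. Summed CPM of 8 Treg markers, *Foxp3* among them, was 2510 and 2330 in CD4+Lrig1+ against 268 and 201 in CD4+Lrig1- cells, and all 8 were higher in both sets. Markers of B cells summed to 78.5 to 98.3 CPM in set 1 and 391 to 775 in set 2, and those of macrophages and monocytes to 77.5 to 84.8 and 368. In bulk samples, a smaller share of cells of a type and less RNA per cell cannot be told apart. Libraries also differed more between sets than between groups, with a correlation of log2 CPM across genes (which are not independent replicates) of 0.908 between sets within each group against 0.96 and 0.959 between groups within a set. For this reason each comparison is given with the groups alone and with a term for the set (called the table block). Both were tested by quasi-likelihood in edgeR, and p was adjusted by the Benjamini-Hochberg method over all 16123 genes. The table block leaves 1 residual degree of freedom. Its p-values therefore rest largely on the spread between libraries (dispersion) that edgeR pools over all genes tested, not on the gene's own spread. The calls of the table block for these cells were known before it was planned here. For a single gene, the smallest p that exact permutation of 2 and 2 libraries allows, if sets are ignored, is 0.333. Permutation within sets allows fewer arrangements, so its smallest p is larger.

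RefSeq windows of 250 bases before annotated start sites (GRCm38.p6) were held for 4 of the 7 mediators (*Il1rn*, *Il12a*, *Fgl2* and *Ebi3*), 7 windows in all. Both strands were searched for the letters of 5 motifs, AP-1 (TGANTCA), NF-kB (GGG and TTCC with any 3 bases between them), STAT (TTCNNNGAA), forkhead (TGTTTAC) and CRE (TGACGTCA). These letters occur in 6.75%, 4.65%, 7.02%, 3.17% and 1.55% of all 32851 such windows. The windows of *Ebi3* (chr17:55952373-55952622, plus strand) and *Fgl2* (chr5:21372423-21372672, plus strand) are shown since these genes are a contrast in the results below, one with levels that differ widely between the groups and one with levels that overlap. Each runs 5′ to 3′ up to the base before the RefSeq start, and capitals mark motif matches.

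*Ebi3*: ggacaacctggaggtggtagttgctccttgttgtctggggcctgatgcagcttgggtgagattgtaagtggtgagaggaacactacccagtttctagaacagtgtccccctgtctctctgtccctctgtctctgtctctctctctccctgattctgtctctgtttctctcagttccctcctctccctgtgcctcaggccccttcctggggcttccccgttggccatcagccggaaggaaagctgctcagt

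*Fgl2*: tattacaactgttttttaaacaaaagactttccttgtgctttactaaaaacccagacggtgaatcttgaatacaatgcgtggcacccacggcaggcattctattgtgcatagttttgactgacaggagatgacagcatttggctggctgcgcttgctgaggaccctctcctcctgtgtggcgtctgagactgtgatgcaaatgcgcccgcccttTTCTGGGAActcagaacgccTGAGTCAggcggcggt

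The *Fgl2* window held a STAT match 36 bases and an AP-1 match 16 bases before the start. No match to the 5 motifs lay in the *Ebi3* window or in either *Il12a* window, which says only that these letters were not found there. Of the 3 *Il1rn* windows, that of variant 1 held an AP-1 match 141 bases before the start and that of variant 2 an NF-kB match 51 bases before the start. These matches are letters in a sequence, and no binding was measured.

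Of the 7 mediators, 0 passed the test with the groups alone, where 0% of all genes tested were called in either direction (smallest adjusted p = 0.501). At an unadjusted p under 0.05 that test had 674 genes higher and 227 lower, with *Penk* and *Ebi3* among the former. With the table block 4 mediators were higher in CD4+Lrig1+ cells (*Penk*, *Ebi3*, *Lgals1* and *Il1rn*) and 0 lower, against 14.6% of all genes higher and 12.8% lower. DESeq2's Wald test with the groups alone called *Penk* and *Ebi3* higher, against 1.61% of all genes higher and 0.31% lower, and with the table block also *Lgals1*, against 11.5% and 12.2%. For 3 mediators both CD4+Lrig1+ libraries exceeded both CD4+Lrig1- libraries (*Penk*, *Ebi3* and *Il10*), as for 14.3% of all genes, and for 0 they were below both, as for 11.8%. The log2 ratio between the groups (CD4+Lrig1+ over CD4+Lrig1-) was above 0 in both sets for 5 mediators, as for 36.5% of all genes, and below 0 in both sets for *Il12a*. It was past 1 in both sets for *Penk*, *Ebi3* and *Il1rn*, as for 7.37% of all genes, and past -1 for *Il12a*, as for 3.01%. The median log2 fold change of the 7 was 0.87 against -0.04 over all genes tested.

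**Figure D1:**
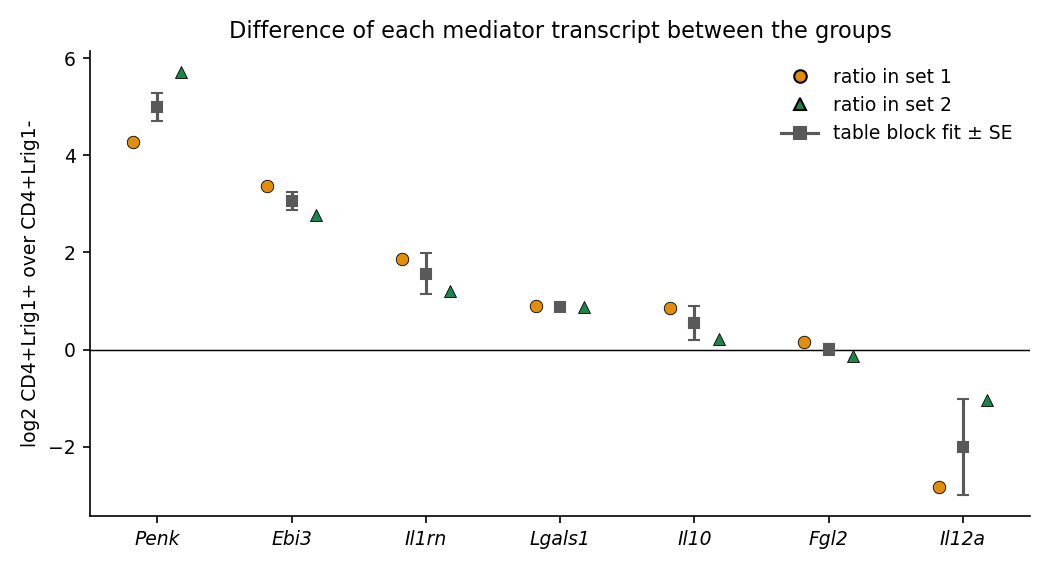
Log2 ratio between the groups (CD4+Lrig1+ over CD4+Lrig1-, y axis) of each mediator (x axis), within set 1 (circles), within set 2 (triangles) and in the fit with the table block (squares, bars ± SE). *Penk* and *Ebi3* lie above 2 in both sets, *Fgl2* lies at 0.15 and -0.14, and *Il12a* lies below 0 in both sets.

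*Penk* (gene ID 18619, chr4:4133536-4138815, minus strand), the precursor of the enkephalin opioid peptides, differed most. It had 2526 and 4531 counts (48.6 and 78.9 CPM) in the CD4+Lrig1+ libraries of set 1 and set 2, and 118 and 79 counts (2.46 and 1.46 CPM) in the CD4+Lrig1- libraries. Both CD4+Lrig1+ libraries were far above both CD4+Lrig1- libraries, and set 2 was the higher set in one group and the lower in the other. The means were 63.7 ± 21.4 CPM (SD, n = 2) and 1.96 ± 0.708 CPM (SD, n = 2). Its log2 ratio was 4.28 in set 1 and 5.72 in set 2, places 79 and 20 from the top among the 16123 genes. The CPM ratio was 19.7 in set 1 (95% interval 16.4 to 23.9) and 53.9 in set 2 (43.2 to 68.3). These exact binomial intervals, here and for the other mediators, cover counting error only and compare libraries, not conditions. In edgeR's quasi-likelihood test the log2 fold change was 5.02 ± 0.52 (SE) with an adjusted p = 0.501 for the groups alone. The table block gave 4.999 ± 0.29 and an adjusted p = 4.495e-05. DESeq2's Wald test gave an adjusted p = 3.903e-13 with the groups alone.

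Nearly all *Penk* counts were assigned to transcript variant 2, which starts 370 bases upstream of variant 1. Its share was 90.8% and 99% in the CD4+Lrig1+ and 89.8% and 84.8% in the CD4+Lrig1- libraries of set 1 and set 2. StringTie divides the reads of exons that variants share, so that a split at low counts is uncertain: in the CD4+Lrig1- libraries variant 1 rested on 12 counts each. Of 10 listed genes that process or receive opioid peptides or encode their other precursors, 4 were abundant enough to test. Of these, 1 was higher and 1 lower with the table block, against 14.6% and 12.8% of all genes. *Cpe*, carboxypeptidase E, which trims peptide hormones after cleavage, had 1.6 and 2.82 CPM in CD4+Lrig1+ against 0.46 and 0.518 CPM in CD4+Lrig1- libraries (log2 ratio 1.72 and 2.36, adjusted p = 0.00589). *Pcsk1*, a prohormone convertase that cuts such precursors, went the other way, with 0.865 and 1.34 against 1.9 and 2.57 CPM (log2 ratio -1.10 and -0.92, adjusted p = 0.0445), a call that DESeq2 with the table block did not give (adjusted p = 0.1715). The delta receptor *Oprd1*, the kappa receptor *Oprk1* and the convertase *Pcsk2* were too low to test, and the mu receptor *Oprm1*, at 0.148 to 0.261 CPM, was not called.

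*Ebi3* (gene ID 50498, chr17:55952623-55957022, plus strand), the chain shared by IL-35 and IL-27, was the mediator with the next largest difference. It had 920 and 1298 counts (17.7 and 22.6 CPM) in the CD4+Lrig1+ and 80 and 178 counts (1.67 and 3.3 CPM) in the CD4+Lrig1- libraries of set 1 and set 2. The groups did not overlap, and set 2 was higher in both. The means were 20.2 ± 3.47 CPM (SD, n = 2) and 2.48 ± 1.15 CPM (SD, n = 2). The log2 ratios were 3.38 and 2.76 (places 239 and 417 of 16123), and the CPM ratios 10.6 (95% interval 8.42 to 13.5) and 6.86 (5.86 to 8.07). edgeR's quasi-likelihood test gave a log2 fold change of 3.02 ± 0.51 (SE) and an adjusted p = 0.5605 for the groups alone, and 3.06 ± 0.18 and 4.124e-05 with the table block. DESeq2's Wald test gave an adjusted p = 2.069e-04 with the groups alone.

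The curated *Ebi3* transcript took 84.3% to 100% of the gene's counts in each library and a predicted variant the rest. The genes *Gm16712* and *Zfp119b*, annotated on the opposite strand, overlap *Ebi3*. Whether counting used the strand is not stated in the sources used here. *Gm16712* had 9 to 23 counts per library, and *Zfp119b* had 194 and 565 counts in the CD4+Lrig1+ against 190 and 382 in the CD4+Lrig1- libraries. Neither had the wide difference between the groups that *Ebi3* had.

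*Il12a* (gene ID 16159, chr3:68690644-68698550, plus strand), the p35 chain that EBI3 needs to form IL-35, was close to the limit of detection. It had 0 and 16 counts (0 and 0.279 CPM) in the CD4+Lrig1+ and 11 and 33 counts (0.23 and 0.611 CPM) in the CD4+Lrig1- libraries of set 1 and set 2. The CD4+Lrig1+ library was the lower in each set, while the ranges of the groups overlapped. In set 1 the level was at least 3.98-fold lower at a floor of 3 counts per library, or at least 2.73-fold lower by the 95% interval of the ratio, which takes in the counting error of the 11 counts. In set 2 the CPM ratio was 0.456 (95% interval 0.234 to 0.852). The test did not call the difference, with an adjusted p = 0.9998 for the groups alone and 0.1768 with the table block. Its counts also fell on different variants: variant 1 held all 16 in one library, variant 2 all 33 in another, and the 11 of the third were split between variant 1 and a predicted variant. *Ebi3* was thus many-fold higher in CD4+Lrig1+ cells while *Il12a* was low in every library, at 0 to 0.402 FPKM against 1.36 to 17.5 FPKM for *Ebi3*. Of 7 dendritic cell markers, 6 were lower and 1 higher in CD4+Lrig1+ cells in both sets. The part of such cells in the *Il12a* difference was not tested.

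Of 8 listed partners and receptors of the IL-12 family, 5 could be tested, and the partner chains *Il12b* (p40), *Il23a* (p19) and *Il27* (p28) were not among them. With the table block 1 receptor gene was higher and 1 lower, where 14.6% and 12.8% of all genes were. *Il12rb1*, a receptor chain for IL-12 and IL-23, had 52.3 and 43.1 CPM in CD4+Lrig1+ against 25.2 and 14.98 CPM in CD4+Lrig1- libraries (log2 ratio 1.05 and 1.52, adjusted p = 3.94e-04). *Il12rb2*, the chain that completes the IL-12 receptor and takes part in that for IL-35, had 1.67 and 1.85 against 11.7 and 9.29 CPM (log2 ratio -2.78 and -2.31, adjusted p = 1.39e-04). *Il6st* (gp130) and *Il27ra*, which receive IL-27, were not called (adjusted p = 0.972 and 0.945).

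*Il10* (gene ID 16153, chr1:131019845-131024970, plus strand) encodes IL-10, a cytokine that limits inflammation. It was expressed at a low level, with 102 and 78 counts (1.96 and 1.36 CPM) in the CD4+Lrig1+ and 51 and 63 counts (1.07 and 1.17 CPM) in the CD4+Lrig1- libraries of set 1 and set 2. Both CD4+Lrig1+ libraries were above both CD4+Lrig1- libraries, but the difference was small in set 2. The CPM ratio was 1.84 (95% interval 1.3 to 2.63) in set 1 and 1.16 (0.825 to 1.65) in set 2, where the interval includes 1. The means were 1.66 ± 0.427 and 1.12 ± 0.0717 CPM (SD, n = 2 each), and edgeR's quasi-likelihood test gave a log2 fold change of 0.57 ± 0.58 (SE) with an adjusted p = 0.9998, or 0.55 ± 0.35 and 0.2996 with the table block. *Il10* thus passed neither test.

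The IL-10 list held 17 genes, of which 13 were tested. The table block called 9 of them higher and 1 lower (14.6% and 12.8% of all genes), the lists and their genes having been chosen with results of these data known. They included 6 transcription factors with reported roles in *Il10* transcription. *Nfil3* had 19.6 and 24.0 CPM in the CD4+Lrig1+ against 2.57 and 3.28 in the CD4+Lrig1- libraries (log2 ratio 2.91 and 2.86, adjusted p = 1.28e-05), and *Irf4* had 97.4 and 82.0 against 19.9 and 25.9 CPM (2.29 and 1.66, adjusted p = 1.2e-04). *Maf* had 127.3 and 78.1 against 39.2 and 19.3 CPM (1.70 and 2.02, adjusted p = 2.86e-05), and *Bhlhe40*, known to repress *Il10*, had 90.9 and 68.6 against 31.5 and 21.0 CPM (1.53 and 1.71, adjusted p = 3.03e-05). Those 4 genes did not overlap between the groups, and the same held for *Ahr* (log2 ratio 1.45 and 1.54, adjusted p = 2.33e-04) and *Batf* (1.24 and 1.53, adjusted p = 1.08e-04), as for 14.3% of all genes. *Prdm1*, encoding Blimp-1, another regulator of *Il10*, had log2 ratios of 0.09 and 0.03 (adjusted p = 0.712).

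Both receptor chains of IL-10 were higher in CD4+Lrig1+ cells with the table block. *Il10ra* had 106.7 and 89.0 against 55.5 and 54.8 CPM (adjusted p = 4.96e-04), and *Il10rb* had 64.6 and 90.8 against 39.3 and 56.7 CPM (adjusted p = 5.57e-04). Among the signalling genes, *Tyk2* was slightly higher (log2 ratio 0.36 and 0.25, adjusted p = 0.0195), *Jak1* slightly lower (-0.29 and -0.43, adjusted p = 0.0397), and *Stat3* and *Socs3* were not called. The other IL-10 family cytokines on the list, *Il19*, *Il20*, *Il22* and *Il24*, were too low to test.

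*Lgals1* (gene ID 16852, chr15:78926725-78930465, plus strand), the gene of galectin-1, was the most abundant mediator in every library. It had 2595 and 12860 counts (49.9 and 223.9 CPM) in the CD4+Lrig1+ and 1290 and 6630 counts (26.9 and 122.8 CPM) in the CD4+Lrig1- libraries of set 1 and set 2. Set 2 was 4.49-fold higher than set 1 in CD4+Lrig1+ and 4.55-fold higher in CD4+Lrig1- cells, so that the groups overlapped although CD4+Lrig1+ was the higher in each set. The CPM ratio was 1.85 (95% interval 1.73 to 1.98) in set 1 and 1.82 (1.77 to 1.88) in set 2. Over the sets the means were 136.9 ± 123.1 and 74.8 ± 67.8 CPM (SD, n = 2 each), and the log2 fold change for the groups alone was 0.87 ± 1.08 (SE) with an adjusted p = 0.9998. With the table block it was 0.88 ± 0.07 with an adjusted p = 1.848e-04 in edgeR's quasi-likelihood test. The call of *Lgals1* thus rests on the term for the set. Summed markers of macrophages and monocytes, and of B cells, were also higher in set 2 in each group. The part of those cells in the *Lgals1* level was not tested.

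The first part of *Lgals1* overlaps *Gm30368*, a non-coding RNA gene, which had 717 and 44 counts in the CD4+Lrig1+ and 897 and 62 counts in the CD4+Lrig1- libraries. With the counts of both genes summed, an alternative chosen after seeing the data, the ratio was 1.39 in set 1 and 1.81 in set 2, and the log2 fold change with the table block was 0.68 ± 0.10 (SE, adjusted p = 0.00276). Of 13 other galectins, galectin ligands and glycan-modifying enzymes 11 were tested. *Cd2*, an adhesion receptor, was higher with the table block (log2 ratio 0.42 and 0.41, adjusted p = 0.0113) and *Cd7*, a galectin-1 receptor that mediates T cell death, was lower (-0.83 and -1.04, adjusted p = 3.6e-04). *Cd7* had 21.2 and 42.0 CPM in CD4+Lrig1+ against 37.8 and 86.0 CPM in CD4+Lrig1- libraries. The galectin genes *Lgals3*, *Lgals4*, *Lgals7*, *Lgals8* and *Lgals9* were not called, and of them *Lgals9* had the highest CPM (113.9 to 242.3). The ligand genes *Ptprc* (CD45) and *Spn* (CD43) and the sialyltransferase gene *St6gal1* were not called either, although DESeq2 with the table block called *Ptprc* lower (adjusted p = 0.01153).

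*Fgl2* (gene ID 14190, chr5:21372673-21378386, plus strand), a secreted fibrinogen-like protein, did not separate the groups. It had 829 and 949 counts (15.9 and 16.5 CPM) in the CD4+Lrig1+ and 688 and 981 counts (14.4 and 18.2 CPM) in the CD4+Lrig1- libraries of set 1 and set 2. Both CD4+Lrig1+ values lay between the CD4+Lrig1- values. The means were 16.2 ± 0.412 and 16.3 ± 2.68 CPM (SD, n = 2 each). The CPM ratio was 1.11 (95% interval 1 to 1.23) in set 1 and 0.91 (0.831 to 0.996) in set 2. The log2 fold change with the table block was 0.00458 ± 0.11 (SE, edgeR's quasi-likelihood test, adjusted p = 0.9843). *Ccdc146*, which spans *Fgl2* on the opposite strand, had 11 counts in the CD4+Lrig1+ library of set 2 and 0 in the others. Of its receptor genes, the inhibitory Fc receptor gene *Fcgr2b* was lower in CD4+Lrig1+ cells, at 0.692 and 4.09 against 1.86 and 7.89 CPM (log2 ratio -1.38 and -0.94, adjusted p = 0.0112 with the table block). It is a gene of B and myeloid cells, and of 10 B cell markers 7 were lower and 0 higher in CD4+Lrig1+ cells in both sets. Their sum was 391 against 775 CPM in set 2 and 98.3 against 78.5 CPM in set 1, where *Cd22* (32.8 against 16.2 CPM) and *Cd79b* (13.5 against 6.85 CPM) made up most of the excess. The part of those cells in the *Fcgr2b* difference was not tested. *Fcgr3* was not called.

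*Il1rn* (gene ID 16181, chr2:24336860-24351491, plus strand) was low in all libraries. It had 41 and 131 counts (0.788 and 2.28 CPM) in the CD4+Lrig1+ and 9 and 52 counts (0.188 and 0.963 CPM) in the CD4+Lrig1- libraries of set 1 and set 2. CD4+Lrig1+ was the higher in each set, and the groups overlapped, set 2 being 2.81-fold and 4.43-fold higher than set 1. The CPM ratio was 4.19 (95% interval 2.01 to 9.82) in set 1 and 2.37 (1.71 to 3.33) in set 2. edgeR's quasi-likelihood test gave a log2 fold change of 1.41 ± 1.13 (SE) and an adjusted p = 0.9998 for the groups alone, and 1.56 ± 0.42 and 0.03172 with the table block. The latter call was not given by DESeq2's Wald test with the table block (adjusted p = 0.1062) or by limma on log2(FPKM + 1) with it (0.0512).

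The variant of *Il1rn* mattered for what the transcript encodes, since variant 2 gives the secreted protein and variant 1 an intracellular form. Variant 2 held 23 and 131 counts in the CD4+Lrig1+ and 9 and 49 counts in the CD4+Lrig1- libraries, and variant 1, which starts 8511 bases upstream, was listed at 0 in all 4. The remaining 18 and 3 counts, which lay in CD4+Lrig1+ of set 1 and CD4+Lrig1- of set 2, were assigned to variant 3. That variant took 43.9% of the counts in the former library. It codes for 162 residues, against 178 for variant 2 and 159 for variant 1, and whether its product is secreted was not examined. Of 6 other IL-1 pathway genes 5 were tested. *Il1r2*, the decoy receptor that binds IL-1 without signalling, had 12.8 and 33.5 CPM in CD4+Lrig1+ against 1.07 and 0.87 CPM in CD4+Lrig1- libraries (log2 ratio 3.54 and 5.21, adjusted p = 1.43e-04 with the table block). *Casp1*, the protease that matures IL-1β, had 18.2 and 41.4 against 6.08 and 14.3 CPM (1.58 and 1.53, adjusted p = 6.89e-05), and *Il1b* itself 1.14 and 2.33 against 3.55 and 5.85 CPM (-1.61 and -1.31, adjusted p = 0.0039). The signalling receptor genes *Il1r1* (log2 ratio 0.01 and -0.04) and *Il1rap* were not called, and *Il1a* was too low to test.

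*Il1rn* and *Il1b* are made by macrophages, monocytes and neutrophils as well, and markers of those cells were present. *C1qa*, a complement gene of tissue macrophages, had 3.81 and 33.8 CPM in the CD4+Lrig1+ and 0.564 and 8.79 CPM in the CD4+Lrig1- libraries, *C1qb* 4.0 and 28.5 against 0.71 and 9.42 CPM, and *Vcam1* 11.2 and 70.1 against 2.26 and 25.5 CPM. As with *Il1rn*, these were higher in CD4+Lrig1+ in each set and higher in set 2 in each group. Of the 12 macrophage and monocyte markers, 6 were higher and 3 lower in CD4+Lrig1+ in both sets, among the latter *Ly6c2* at 7.81 and 21.7 against 20.0 and 74.3 CPM. The 7 neutrophil markers summed to 8.92 and 33.9 against 17.7 and 83.5 CPM, with 5 lower and 0 higher in both sets and *Ly6g* at 0 in both libraries of set 1. The 7 dendritic cell markers summed to 14.3 and 13.7 against 59.0 and 61.5 CPM. The part of these cells in *Il1rn* and *Il1b* was not tested.

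**Figure D2:**
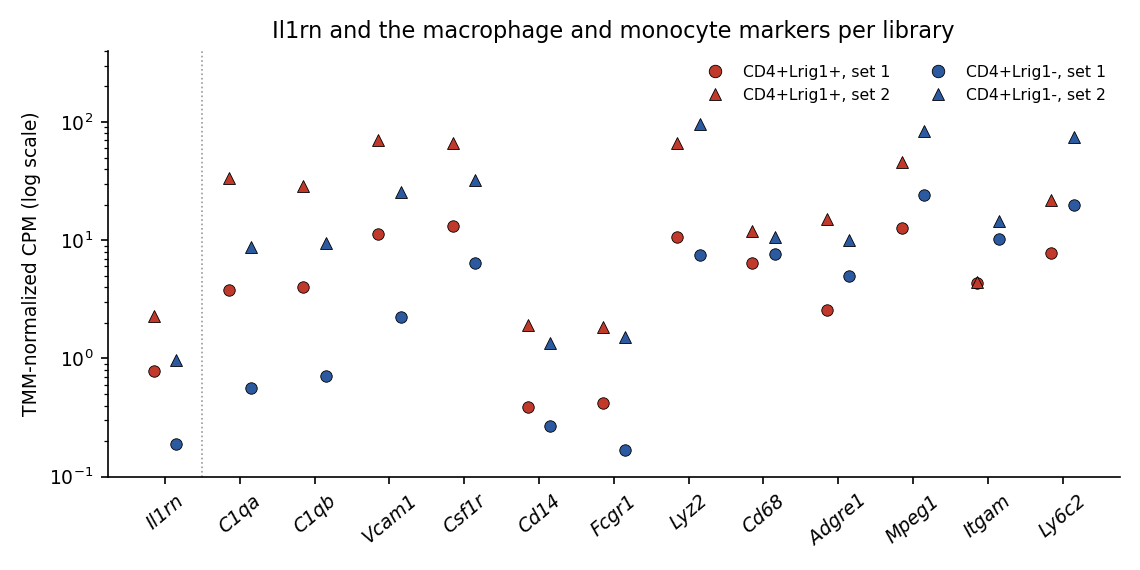
TMM-normalized CPM (y axis, log scale) of *Il1rn* and of the 12 macrophage and monocyte markers (x axis), 1 symbol per library (CD4+Lrig1+ red, CD4+Lrig1- blue, set 1 circles, set 2 triangles). *C1qa*, *C1qb*, *Vcam1* and *Csf1r* have the same order of groups within each set as *Il1rn*, and *Ly6c2*, *Mpeg1* and *Itgam* have the opposite one.

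**Figure D3:**
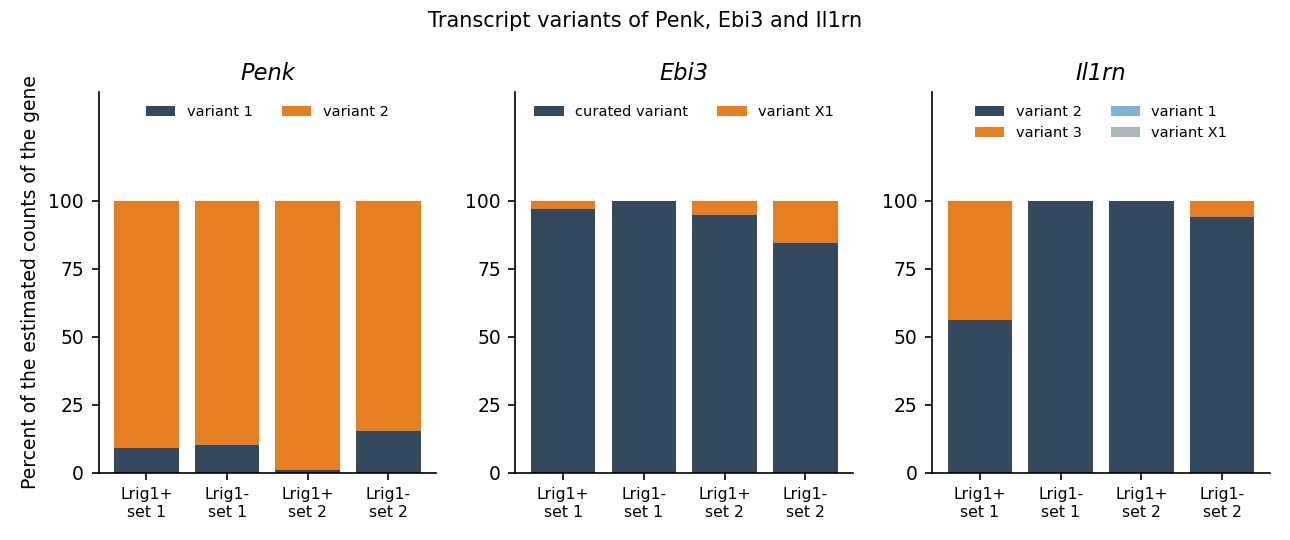
Percent of each gene's estimated counts (y axis) assigned to each annotated variant of *Penk*, *Ebi3* and *Il1rn* in each library (x axis). *Penk* variant 2 takes 84.8% to 99%, the curated *Ebi3* transcript 84.3% to 100%, and *Il1rn* variant 2 takes 56.1% in the CD4+Lrig1+ library of set 1 and 94.2% to 100% in the others.

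Set against each other per length, the mediators had the same order in both CD4+Lrig1+ libraries. *Lgals1* was highest with 60.0 and 252.8 FPKM in set 1 and set 2, before *Penk* with 35.8 and 55.0 and *Ebi3* with 14.6 and 17.5 FPKM. *Fgl2* followed with 4.06 and 3.96 FPKM and *Il10* with 1.43 and 0.936 FPKM, and *Il1rn* (0.297 and 0.827 FPKM) and *Il12a* (0 and 0.183 FPKM) were lowest. No neighbours in that order overlapped. In the CD4+Lrig1- libraries *Lgals1* was again highest, at 32.3 and 129.4 FPKM, and *Fgl2* came next at 3.66 and 4.06 FPKM. There *Ebi3* (1.36 and 2.41 FPKM) and *Penk* (1.8 and 0.932 FPKM) overlapped and changed places between the sets, ahead of *Il10* (0.776 and 0.751 FPKM). *Il1rn* (0.0682 and 0.323 FPKM) and *Il12a* (0.148 and 0.402 FPKM) overlapped as well. Among all genes with any FPKM, the mean level of *Penk* lay at percentile 93.5 in CD4+Lrig1+ and 52.4 in CD4+Lrig1- cells, that of *Ebi3* at 81.2 and 55, and that of *Lgals1* at 98.5 and 96.9.

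**Figure D4:**
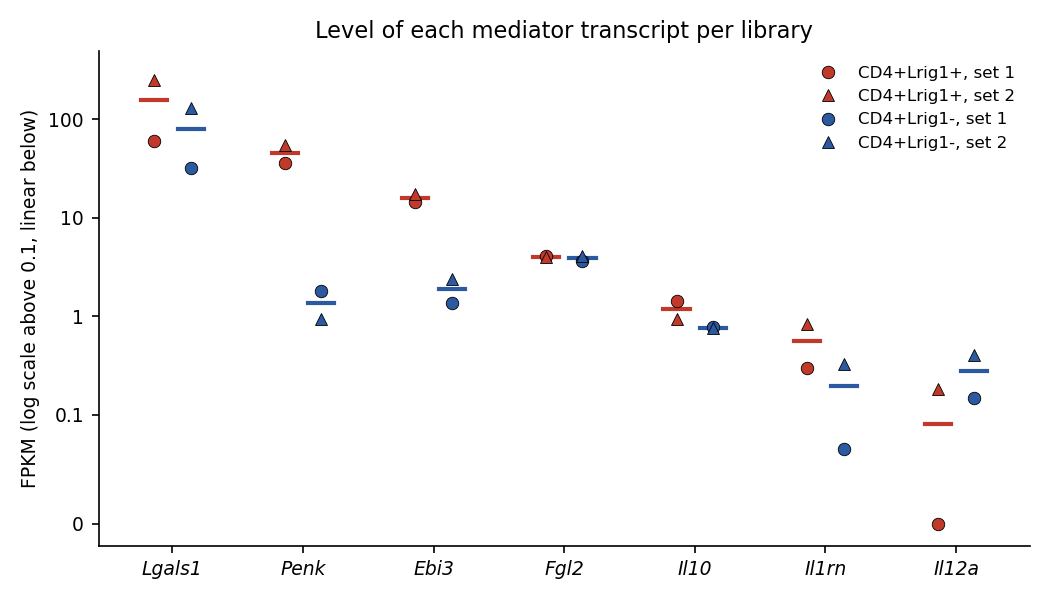
FPKM (y axis, log scale above 0.1 and linear below) of each mediator (x axis), 1 symbol per library (CD4+Lrig1+ red, CD4+Lrig1- blue, set 1 circles, set 2 triangles), with bars at the mean of 2 libraries. *Penk* and *Ebi3* are wide apart between the groups, *Fgl2* stays at 3.66 to 4.06 FPKM, and *Lgals1* differs more between sets than between groups.

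Over all 6 lists of pathway genes, 40 of 56 genes were tested. Of them, with the table block, 14 were higher and 6 lower in CD4+Lrig1+ cells (14.6% and 12.8% of all genes) and 20 were not called, and with the groups alone 0 were called (10 higher and 1 lower at an unadjusted p under 0.05). DESeq2's Wald test with the groups alone called *Nfil3*, *Irf4* and *Il1r2* higher and *Il12rb2* lower. With the groups alone in edgeR, the median log2 fold change of the 40 tested pathway genes was 0.09, against -0.04 over all genes tested. That of the IL-10 list was 0.83, and those of the other lists ran from -0.59 (FGL2 receptors) to 0.31 (opioid peptide genes).

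**Figure D5:**
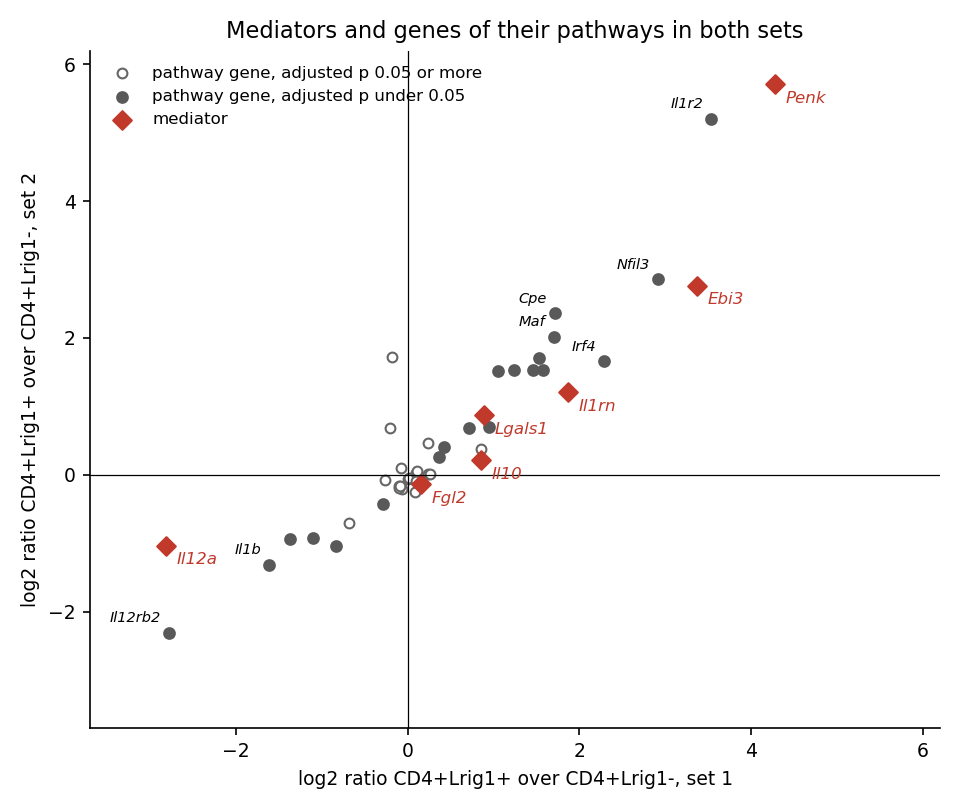
Log2 ratio between the groups (CD4+Lrig1+ over CD4+Lrig1-) in set 1 (x axis) against set 2 (y axis) for the 7 mediators (red diamonds) and the 40 tested pathway genes, filled where the adjusted p with the table block was under 0.05. *Penk* and *Il1r2* lie farthest up at the right, *Nfil3* lies near *Ebi3*, and *Il12rb2* and *Il12a* lie at the lower left.

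The genes with the most similar pattern were found for each mediator among 12693 genes with a mean of at least 1 CPM, by the root mean square difference of log2 CPM, centred per gene, over the 4 libraries. With so few libraries this describes likeness only. Nearest to *Ebi3* were *Gpm6b* (0.0943), *Lima1* (0.103) and *Gm4841* (0.165), and nearest to *Lgals1* were *Cd302* (0.0632), *Hebp1* (0.0743) and *AW112010* (0.0996). *Penk* had no close neighbour, the nearest being *Ces2c* (0.315), *Serpinc1* (0.33) and *Glt28d2* (0.351). For *Il1rn* they were *Gm35037* (0.0836) and *Itgb5* (0.157). *Il10* was nearest to *Traip* (0.0147) and *Cdca2* (0.0422), which act in cell division. *Il12a* was nearest to *Rab30* (0.142), *Klri2* (0.168) and *H2-Eb2* (0.276), and *Fgl2* to *Zfp984* (0.015), *Sft2d1* (0.0196) and *Ppme1* (0.0203).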

How the data were processed

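Total RNA of sorted splenic CD4+ T cells was made into stranded mRNA libraries. Per the labels and the submitters' processing notes, reads were handled with Trimmomatic 0.38, HISAT2 2.1.0, Bowtie2 2.3.4.1 and StringTie 2.1.3b, with GRCm38 and mm10 named as builds. The estimated counts per RefSeq transcript (129299 in each table) were made by the authors with StringTie and deposited unnormalized, as whole numbers. FPKM values of the same transcripts, also from StringTie, were deposited beside them. TPM columns were not used here, nor was a table with 6 columns of per-sample values whose names do not give the group. The 4 libraries held 48384980 and 59402441 (CD4+Lrig1+) and 44865070 and 59977951 (CD4+Lrig1-) estimated counts.

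Counts and FPKM were summed per gene symbol with Python 3.11.15 and pandas 2.3.3. In R 4.3.3, genes were filtered by filterByExpr, scaled by TMM and tested with the quasi-likelihood test of edgeR 4.0.16 at a Benjamini-Hochberg adjusted p under 0.05, with the group alone as the main design and a table term as an alternative. The SE given with its log2 fold changes was derived, as the size of the log2 fold change divided by the square root of the F statistic of the test. A prior count of 2 was used for log2 ratios within a set. Further alternatives were leaving out each library in turn, the size factors and Wald test of DESeq2 1.42.0, the exact test of edgeR, testing unfiltered genes or only those with 10 counts or more in all libraries, and limma 3.58.1 with log2 of FPKM plus 1 or plus 0.1. DESeq2 and limma with the table term, and the sum of *Lgals1* and *Gm30368*, were chosen after seeing the data. The kinds of test were run on simulated counts with known changes. These counts kept the difference between the sets and took their dispersion from the fit with the table term, a setting that favours fits with that term. The quasi-likelihood test and limma with the group alone did not recover the changed genes there. A lack of calls by them thus does not show a lack of change.

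The mediators and the lists of pathway and marker genes were chosen with earlier results of these data known. Named were all mediators, pathway genes past the threshold in either design or with a log2 ratio past 1 in size in both sets, the 3 genes most like each mediator (for *Il10* and *Il1rn*, 1 of the 3 is not reported here), and *Lrig1* and *Foxp3* as checks. Other genes are named for their place in a pathway list, as markers, or because they overlap a mediator, and some of these were chosen after their values were seen. The design was written for 6 samples and 4 could be used.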

Additional observations from a re-analysis of the deposited data

How the results depend on the processing

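No paired analysis was possible because the columns carry no replicate numbers, so libraries were matched only by the table that holds them (the table block). The term for the table decides most calls. Genes higher and lower in CD4+Lrig1+ cells numbered 0 and 0 with the group alone, 2358 and 2056 with the table block, 260 and 50 by DESeq2's Wald test, 196 and 17 by edgeR's exact test, 1848 and 1969 by DESeq2 with the table block and 1911 and 1016 by limma with it. Mediators called numbered 0, 4, 2, 2, 3 and 3 in that order. Pathway genes called higher numbered 0, 14, 3, 3, 14 and 14, and lower 0, 6, 1, 1, 6 and 5. DESeq2's size factors, both filters and limma without the table term called 0 genes, as the group alone did. Leaving out 1 library gave 1 to 88 genes higher, 0 to 2 lower, 0 to 1 mediators and 0 to 1 pathway genes higher. The mediator was *Penk* (adjusted p 2.46e-04 to 0.0434), lost without the CD4+Lrig1- library of set 2 (0.199). The log2 fold change of *Fgl2* turned from -0.00302 to 0.00458 with the table block, 0.0132 with at least 10 counts, 0.0453 and 0.0557 by limma with pseudocounts of 1 and 0.1, and 0.0453 by limma with the table block, and spanned -0.118 to 0.18 with 1 library left out. That of *Lgals1* spanned -0.592 (without the CD4+Lrig1+ library of set 2) to 2.35, in fits with no table term. *Il12a* and *Il1rn* gave no value with at least 10 counts in every library. Depth limits *Il12a* (0 to 33 counts) and *Il1rn* (9 to 131) most.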
